A study of Mus musculus with 6 samples.

Results

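Axon guidance genes encode the secreted and membrane-bound cues that steer growing nerve endings, together with the receptors that read them. Here they were 74 mouse genes taken by symbol: the semaphorins of classes 3 to 7, the plexins, the neuropilins, the Eph receptors and their ephrins, the netrins and netrin-G proteins, the netrin receptors Dcc, Neo1 and Unc5, and the Slits with their Robo receptors. Of 75738 consensus regions of open chromatin in 6 libraries, 62802 lay within 50 kb of a protein-coding gene, and 544 of these had an axon guidance gene as the nearest one. The 544 regions belonged to 64 of the 74 genes. The symbol rule also took in Unc50 and Unc5cl, whose names begin like those of the netrin receptors but whose products are not known as guidance receptors; they held 0 and 1 region of their own.

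The chromatin came from back skin epidermis of C57BL/6 mice that carried TNC-CREER, a tamoxifen-inducible Cre driven by the tenascin-C gene, and a tdTomato reporter. Tamoxifen (100 µg/g) was injected on days 51 and 52 after birth, and skin was taken at 60 days, so the 3 sorted populations shared genotype, treatment and age. Touch dome (TD) cells, keratinocytes of the small sensory patches that house Merkel cells, were sorted for EPCAM, SCA1, α6-integrin and tdTomato. Interfollicular epidermis (IFE) cells carried the same surface proteins without tdTomato, and hair follicle (HF) cells carried EPCAM and α6-integrin without SCA1 or tdTomato. Each population had 2 libraries of 50000 cells, and the labels do not state that the libraries are from different animals; replicate spread may therefore be only technical. TD identity rests on where the Tnc-driven Cre was active, and a TD cell that escaped recombination would fall into the IFE gate.

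Semaphorins signal through plexins, and most class 3 semaphorins need a neuropilin as co-receptor. Netrin-1 attracts growth cones through DCC and neogenin and repels them through UNC5 receptors, Slits act mainly as repellents through Robos, and ephrins pass signals both ways when they meet Eph receptors on a neighbouring cell. In skin, sensory nerve endings reach Merkel cells in touch domes and wrap around hair follicles, and keratinocytes use semaphorins, Ephs and ephrins among themselves as well. A peak in ATAC-seq marks DNA that a transposase could reach; it is no measure of RNA or protein.

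The promoter windows of 4 genes are shown because they carry the contrasts described below. Peaks overlapped the windows of Unc5c and Efna5 in some libraries and not in others. The windows of Sema3e and Robo1 had peaks in all 6 libraries, while some, but not all, other regions of these genes lacked them in part of the libraries. Each window runs 5′ to 3′ on the gene's strand from 250 bases before to 50 after a RefSeq start, on GRCm38.p6. Capitals mark GC boxes, searched as GGGCGG on both strands.
Unc5c: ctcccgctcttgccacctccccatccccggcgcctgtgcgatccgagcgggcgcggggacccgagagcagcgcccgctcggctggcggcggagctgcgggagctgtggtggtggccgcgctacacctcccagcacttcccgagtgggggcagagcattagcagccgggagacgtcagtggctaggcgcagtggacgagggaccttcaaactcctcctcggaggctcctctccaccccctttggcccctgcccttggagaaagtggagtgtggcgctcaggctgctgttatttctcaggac
Efna5: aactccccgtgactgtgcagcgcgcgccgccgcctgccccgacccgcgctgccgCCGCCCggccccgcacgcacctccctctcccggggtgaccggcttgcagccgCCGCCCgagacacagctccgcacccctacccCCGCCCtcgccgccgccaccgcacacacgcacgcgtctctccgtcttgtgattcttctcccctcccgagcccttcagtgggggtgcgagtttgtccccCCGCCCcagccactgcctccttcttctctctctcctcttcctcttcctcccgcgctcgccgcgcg
Sema3e: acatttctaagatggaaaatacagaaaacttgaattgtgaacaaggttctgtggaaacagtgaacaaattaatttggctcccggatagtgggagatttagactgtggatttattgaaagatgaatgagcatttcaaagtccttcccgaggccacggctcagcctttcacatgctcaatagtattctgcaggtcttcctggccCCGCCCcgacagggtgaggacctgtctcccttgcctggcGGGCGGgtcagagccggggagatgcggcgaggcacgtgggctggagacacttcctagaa
Robo1: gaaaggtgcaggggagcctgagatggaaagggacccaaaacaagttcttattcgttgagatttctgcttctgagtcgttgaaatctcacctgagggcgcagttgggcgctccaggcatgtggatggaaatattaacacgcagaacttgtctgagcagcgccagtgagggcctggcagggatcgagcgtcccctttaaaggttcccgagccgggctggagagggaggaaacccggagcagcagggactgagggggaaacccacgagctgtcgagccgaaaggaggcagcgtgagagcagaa
The windows lie at chr3:141465314-141465613 on the plus strand (Unc5c), chr17:62881268-62881567 on the minus strand (Efna5), chr5:14025026-14025325 on the plus strand (Sema3e) and chr16:72662899-72663198 on the plus strand (Robo1). They held 0, 4, 2 and 0 GC boxes in that order, and GC contents of 68.3%, 73.3%, 50.7% and 57.0%. Across 32851 promoter windows of the same length, 35.7% held a GC box. The CCAAT box, searched as those letters, was in none of the windows shown and in 37.4% of all windows, on either strand. The TATA box, searched as TATAAA, was likewise in none and in 13.6% of all, and the AP-1 motif, searched as TGANTCA, in none and in 7.81%.

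A region counted as open in a library that had a peak in it, and as closed otherwise. Libraries held 50153 to 59250 peaks, and the lists give no read counts or scores, so sequencing depth is unknown. TD replicate 2 stood apart from TD replicate 1, with peaks in 78.4% against 66.5% of all regions near genes, where the other 4 libraries lay between 68.7% and 74.8%. Chromatin at basal keratinocyte markers was open in every population, with both libraries of each population holding a peak at 8 of 8 genes (Krt5, Krt14, Trp63 and others). Of the 96 regions at these genes 68 and 76 were open in TD, 81 and 76 in IFE, and 67 and 69 in HF. Peaks near genes of other cell types were present too. Counted by gene in the same way, in TD, IFE and HF in that order, melanocyte genes scored 6, 6 and 6 of 9. Endothelial genes scored 6, 6 and 5 of 8, and Merkel cell genes 4, 5 and 5 of 7. Fibroblast genes scored 4, 2 and 4 of 6, Schwann cell genes 3, 3 and 3 of 6, and immune genes 3, 2 and 0 of 6. The counts that follow are by region. Of 47 regions at endothelial genes 24 and 29 were open in TD, 28 and 29 in IFE, and 38 and 41 in HF (none at Cdh5 or Kdr). Of these, Erg had 5 and 6 of 15 open in TD, 5 and 5 in IFE, and 13 and 14 in HF, and Pecam1 had 10 and 11 of 13 in TD, 13 and 11 in IFE, and 11 and 11 in HF. All 3 sorts required EPCAM, an epithelial surface protein, but whether cells of other types passed the sorts was not tested. Fibroblast genes had 9 and 11 of 15 regions open in TD, 5 and 3 in IFE, and 14 and 13 in HF (none at Lum), and melanocyte genes 25 and 30 of 34 in TD, 18 and 18 in IFE, and 26 and 27 in HF (none at Tyr or Kit). Merkel cell genes had 6 and 10 of 16 open in TD, 10 and 7 in IFE, and 11 and 13 in HF, Schwann cell genes 16 and 19 of 21 in TD, 18 and 17 in IFE, and 17 and 20 in HF, and immune genes 3 and 3 of 3 in TD, 2 and 2 in IFE, and 0 and 0 in HF. The part of such cells in the values below was not tested. A region open in few cells and one weakly open in many cannot be told apart in sorted populations.

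The axon guidance regions were less often open than regions near genes in general. Of the 544 regions, 319 and 385 were open in TD, 330 and 332 in IFE, and 378 and 389 in HF. These are shares of 58.6% and 70.8% in TD, with exact 95% binomial intervals of 54.4 to 62.8% and 66.8 to 74.6%. In IFE they were 60.7% and 61.0% (56.4 to 64.8% and 56.8 to 65.1%), and in HF 69.5% and 71.5% (65.4 to 73.3% and 67.5 to 75.3%). Intervals cover counting error only. Both HF libraries lay above both IFE libraries, and the TD libraries spanned the gap. Means were 64.7 ± 8.58% in TD, 60.8 ± 0.260% in IFE and 70.5 ± 1.43% in HF (SD, n = 2 each), against 72.4 ± 8.38% in TD, 70.0 ± 1.77% in IFE and 73.6 ± 1.71% in HF over all regions near genes. In percentage points, the difference in mean share was 3.86 for TD minus IFE, -5.79 for TD minus HF and -9.65 for IFE minus HF. The values for TD minus IFE and TD minus HF were smaller than the SD of the TD libraries. Without TD replicate 2 the difference of TD from IFE was -2.21 points, and without TD replicate 1 that of TD from HF was 0.276 points. An exact two-sided permutation test of 2 libraries against 2 cannot give a p below 0.333, so none of these differences can pass a threshold of 0.05.

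Regions open in both libraries of one population and in neither of another were more numerous for TD than for IFE, about even between TD and HF, and fewer for IFE than for HF. All regions near genes ran the same way between TD and IFE and between IFE and HF, as the background shares below show. TD against IFE gave 36 regions open in TD and closed in IFE, 6.62% of the members, where the background over all regions near genes was 4.48%. The reverse, open in IFE and closed in TD, held at 13 regions (2.39%, background 1.82%). TD against HF gave 52 regions open in TD and closed in HF (9.56%, background 8.02%) and 54 open in HF and closed in TD (9.93%, background 7.26%). IFE against HF gave 56 regions open in IFE and closed in HF (10.3%, background 9.91%), which is near the background, and 96 open in HF and closed in IFE (17.6%, background 12.8%). The 3 comparisons share libraries. Leaving out a library loosens the rule and raises counts: without TD replicate 1, 77 regions were open in TD and closed in IFE. Regions open in IFE and closed in TD numbered 34 when TD replicate 2 was left out, 30 when IFE replicate 1 was and 27 when IFE replicate 2 was. Regions open in HF and closed in TD numbered 101 without TD replicate 2 and 89 without HF replicate 1.

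Across the 3 populations together, 209 of the 544 regions were open in all 6 libraries (38.4%, background 48.2%). TD alone was open at 9 regions (1.65%, background 0.967%), IFE alone at 9 (1.65%, background 1.22%) and HF alone at 45 (8.27%, background 6.22%). TD and IFE were open and HF closed at 39 regions (7.17%, background 6.31%), TD and HF open and IFE closed at 26 (4.78%, background 3.28%), and IFE and HF open with TD closed at 3 (0.551%, background 0.336%). In 204 regions (37.5%) at least 1 population had a peak in only 1 of its 2 libraries, against 33.5% of all regions near genes.

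Axon guidance regions lay near gene ends less often than most. Within 1 kb of a gene end lay 61 of the 544 (11.2%), against 21.0% of all regions near genes, while 424 (77.9%) overlapped the gene's span, against 69.5%. Regions open in all 6 libraries had a median width of 1315 bp and lay near a gene end in 23.0% of cases, whereas the 176 regions that separated at least 1 pair of populations had a median width of 775 bp and lay there in 2.84%. Widths over all regions near genes were 1298 and 746 bp for the same classes. Since regions near gene ends are open more widely, the counts were repeated over the 483 member regions more than 1 kb from a gene end, a check chosen after seeing the data. TD open and IFE closed was then found at 7.25% of members and 5.41% of all such regions, and IFE open and TD closed at 2.28% and 2.15%. TD open and HF closed was found at 10.6% of members and 9.53% of all, and HF open and TD closed at 10.6% and 8.68%. IFE open and HF closed was found at 11.4% of members and 11.8% of all, and HF open and IFE closed at 19.5% and 15.4%. All 6 libraries were open at 33.3% and 39.0%. The member shares for IFE open and TD closed and for IFE open and HF closed were near those of all such regions.

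Families were compared by the share of their regions open in each library. The ligands as a whole were open at 58.0% and 69.1% of 314 regions in TD, 62.7% and 64.6% in IFE, and 71.0% and 74.5% in HF. The receptors were open at 59.6% and 73.0% of 230 regions in TD, 57.8% and 56.1% in IFE, and 67.4% and 67.4% in HF. Thus the ligand shares of IFE lay within those of TD, while the receptor shares of IFE lay below both TD libraries.

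**Figure D1:**
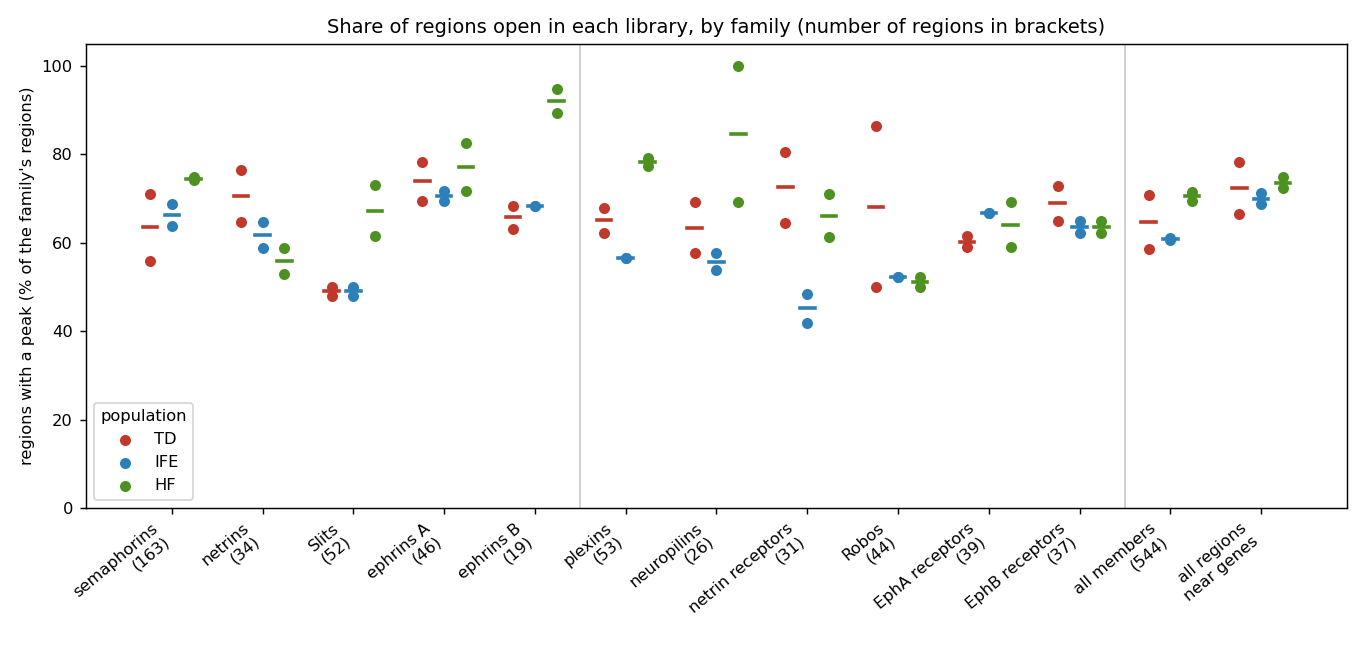
Percent of each family's consensus regions with a peak, for each library (points) of TD, IFE and HF, with the mean of the 2 libraries as a short line; ligand families are left of the first grey line and receptor families right of it. Netrin receptors show 64.5% and 80.6% in TD, 48.4% and 41.9% in IFE, and 71.0% and 61.3% in HF, and the 2 TD points of the Robos lie far apart, at 50.0% and 86.4%.

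Among the ligands, the semaphorins are the largest family, with 163 regions at 19 of 20 genes. Peaks were found at 91 and 116 of them in TD, 104 and 112 in IFE, and 121 and 122 in HF. IFE was open and HF closed at 15 semaphorin regions, with the reverse at 28. These are 9.20% and 17.2% of the family, where the backgrounds were 9.91% and 12.8%. TD was open and HF closed at 11 regions (6.75%, background 8.02%), with the reverse at 18 (11.0%, background 7.26%). The shares open in IFE or TD and closed in HF were thus near the background, on its lower side. Between TD and IFE, 2 regions were open in TD and closed in IFE (1.23%, background 4.48%), with the reverse at 3 (1.84%, background 1.82%). Sema3e, a class 3 semaphorin that binds plexin D1 directly, had the largest net number of specific regions of any member in IFE against HF. It had peaks at 8 and 12 of its 22 regions in TD, 6 and 8 in IFE, and 22 and 19 in HF. Every HF library exceeded every TD and IFE library. No region was open in TD or IFE and closed in HF, while 7 were open in HF and closed in TD and 11 were open in HF and closed in IFE. The start of the gene, whose sequence is printed above, was covered in all 6 libraries. Regions 31.9 and 41.8 kb before the start and 34.94, 38.15 and 65.32 kb after it were open in all 6 as well.

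The HF-only regions of Sema3e all lay downstream of the start and inside the gene's span on chromosome 5 (mm10). They were chr5:14027596-14028741, chr5:14030755-14031320, chr5:14039192-14040541 and chr5:14048196-14049206 toward the start, followed by chr5:14074864-14075239, chr5:14138575-14139212 and chr5:14217574-14217941. Of these, chr5:14039192-14040541 had the widest peaks, of 1176 and 1350 bp in the HF libraries. A region at chr5:14230667-14231820, near the far end of the gene, was open in both TD and both HF libraries and closed in IFE.

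Other semaphorins with more open regions in HF were Sema3a, Sema3c and Sema6a. Sema3a encodes a repellent of sensory axons that acts through neuropilin-1 and class A plexins. Peaks lay at 2 and 6 of its 12 regions in TD, 3 and 5 in IFE, and 10 and 10 in HF, without overlap between HF and the others, and none of the 6 libraries had a peak over its RefSeq promoter window. Sema6a, a membrane-bound semaphorin that binds class A plexins, had 4 and 10 of 13 regions open in TD, 7 and 8 in IFE, and 12 and 13 in HF. Sema3c had 7 and 11 of 13 open in TD, 9 and 8 in IFE, and 12 and 12 in HF. For all 3 genes the HF libraries lay above the other 4, by only 1 region over TD replicate 2 in Sema3c.

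Sema4d, Sema3f and Sema5a went the other way against HF. Sema4d, a transmembrane semaphorin that signals through plexin B1, was open at 11 and 10 of 12 regions in TD, 11 and 11 in IFE, and 8 and 9 in HF. Sema3f, a class 3 semaphorin that binds neuropilin-2, was open at 7 and 7 of 7 regions in TD, 7 and 7 in IFE, and 5 and 5 in HF. Neither gene had a region open in HF and closed in TD or IFE. Sema5a had 20 and 23 of 35 regions open in TD, 24 and 26 in IFE, and 20 and 22 in HF, so both IFE libraries exceeded the rest, by 1 region at the least. Its regions open in TD and closed in HF numbered 4, against 2 in reverse, but without HF replicate 1 the net number was -1. Smaller differences were seen at Sema3d, with 5 and 7 of 8 regions open in TD, 6 and 6 in IFE and 4 and 4 in HF, and at Sema4a, with 2 and 3 of 4 in TD, 3 and 3 in IFE and 4 and 4 in HF. Sema4b, Sema4f, Sema5b, Sema6b, Sema6d and Sema3b had 3 to 9 regions each and no net difference of more than 1 region in any comparison, and Sema7a, with 4 regions, had a net of 1 over HF in both TD and IFE. Sema4c and Sema6c were open at all of their 1 and 2 regions in every library, Sema3g had 1 region, open in IFE replicate 2 alone, and Sema4g had no region.

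**Figure D2:**
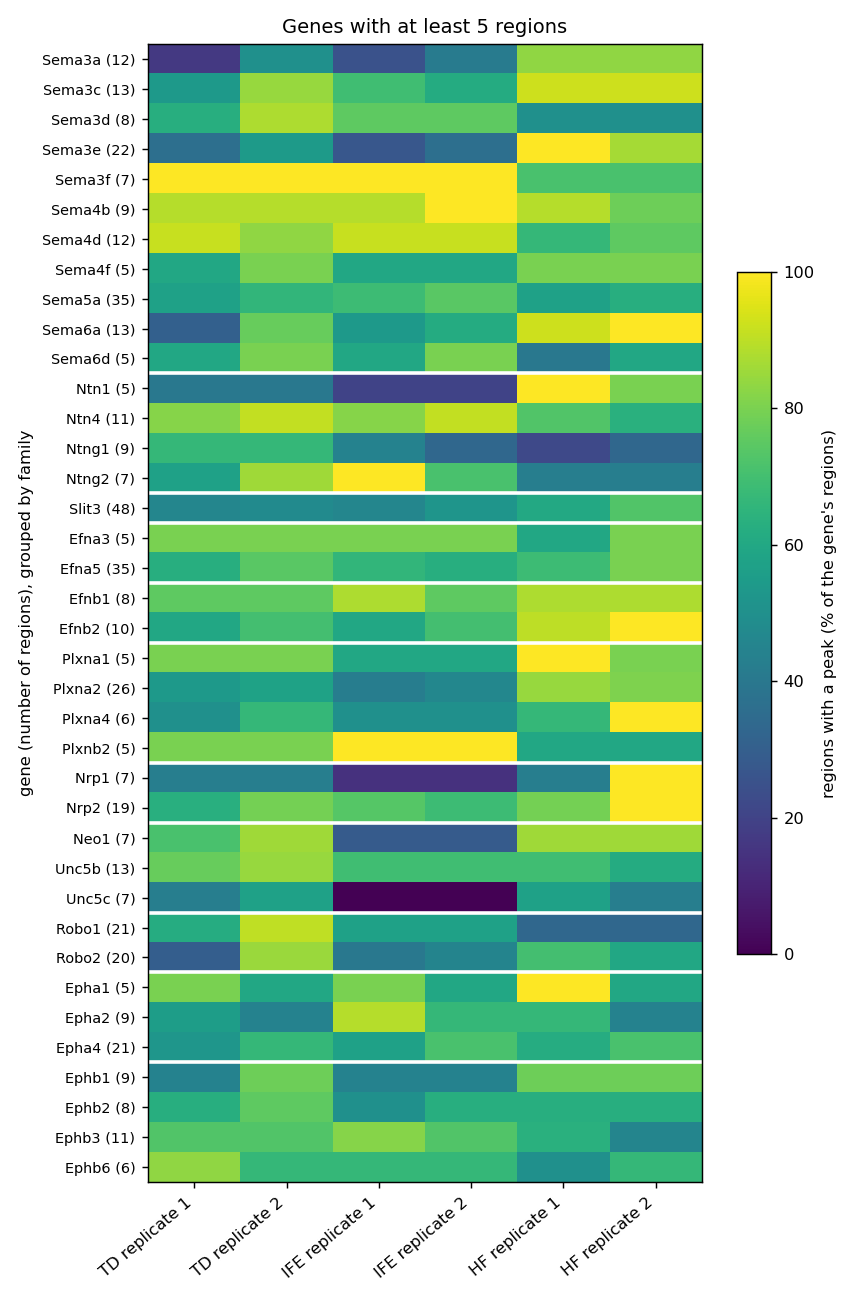
Percent of each gene's consensus regions with a peak in each library (colour, 0 to 100%), for the 38 genes with at least 5 regions, grouped by family between white lines with the number of regions in brackets. Sema3a, Sema3e, Ntn1 and Efnb2 are brighter in both HF columns than in the TD and IFE columns, Robo1 and Ntng1 are darker there than in TD, and Unc5c is at 0 in both IFE columns.

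The netrins held 34 regions, with 22 and 26 open in TD, 22 and 20 in IFE, and 20 and 18 in HF. TD was open and HF closed at 8 netrin regions (23.5%, background 8.02%), with the reverse at 3 (8.82%, background 7.26%). IFE was open and HF closed at 7 (20.6%, background 9.91%), with the reverse at 4 (11.8%, background 12.8%). Ntn1 encodes netrin-1, the ligand of DCC, neogenin and UNC5 proteins. It had peaks at 2 and 2 of 5 regions in TD, 1 and 1 in IFE, and 5 and 4 in HF. A region over one end of the gene's span was open in all 6 libraries, and 2 regions within the gene were open in HF alone. Ntn4, Ntng1 and Ntng2 had fewer open regions in HF. Ntn4, which binds laminins and is known from basement membranes, was open at 9 and 10 of 11 regions in TD, 9 and 10 in IFE, and 8 and 7 in HF, with 3 regions open in TD and IFE and closed in HF. Ntng1 and Ntng2 encode netrin-G proteins, which are anchored in the membrane and bind their own partners rather than DCC. Ntng1 was open at 6 and 6 of 9 regions in TD, 4 and 3 in IFE, and 2 and 3 in HF, so TD exceeded both others. Ntng2 was open at 4 and 6 of 7 regions in TD, 7 and 5 in IFE, and 3 and 3 in HF. Ntn3 had 2 regions with no difference called, and Ntn5 had none.

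Slit regions numbered 52, and 48 of them belonged to Slit3. Slit3 was open at 22 and 23 of the 48 regions in TD, 22 and 25 in IFE, and 29 and 35 in HF. Both HF libraries exceeded the other 4, and HF replicate 2 exceeded HF replicate 1 by 6 regions. Slit3 was open in TD and closed in HF at 4 regions, with the reverse at 10, and open in IFE and closed in HF at 4, with the reverse at 11. For the Slits together the shares were 7.69% open in TD and closed in HF (background 8.02%) and 19.2% in reverse (background 7.26%), and 7.69% open in IFE and closed in HF (background 9.91%) and 23.1% in reverse (background 12.8%). Without HF replicate 1 the net of TD against HF was -12 regions rather than -6, and that of IFE against HF -13 rather than -7. Without IFE replicate 1 the net of IFE against HF was -4, and that of TD against IFE was -3 rather than 1. HF alone was open at 7 Slit3 regions, all inside the gene on chromosome 11, the nearest to the start at chr11:35288182-35288945 and the farthest at chr11:35670710-35671231. TD alone was open at chr11:35149669-35150093 and IFE alone at chr11:35731226-35731584, beyond the gene's end. Slit1 was open at 2 and 2 of 3 regions in TD, 2 and 1 in IFE, and 2 and 2 in HF, and Slit2 at its only region in every library but IFE replicate 2.

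Ephrins A are tethered to the membrane by a lipid anchor and bind mainly EphA receptors. Of the 46 ephrin A regions, 8.70% were open in TD and closed in IFE (background 4.48%), with 2.17% in reverse (background 1.82%). TD was open and HF closed at 10.9% (background 8.02%), with 4.35% in reverse (background 7.26%). IFE was open and HF closed at 10.9% (background 9.91%), with 10.9% in reverse (background 12.8%). Efna5 held 35 of the family's 46 regions and was open at 22 and 26 of them in TD, 23 and 22 in IFE, and 24 and 28 in HF. The populations overlapped in number, and 12 of the 35 regions were open in all 6 libraries. In another 13, at least 1 population had a peak in only 1 of its libraries. HF was open and IFE closed at 5 Efna5 regions, HF open and TD closed at 2, and IFE open and TD closed at 1. TD was open and IFE closed at 4 regions, chr17:62556543-62557851, chr17:62572819-62573481, chr17:62659634-62660383 and chr17:62929493-62930022, and all 4 were open in HF as well. TD and IFE were open and HF closed at chr17:62655969-62656804, chr17:62690260-62690778, chr17:62694945-62695587 and chr17:62879960-62881492. The net of TD against HF, 2 regions, was -2 without TD replicate 2 and also without HF replicate 1, and the net of 3 against IFE was 0 without IFE replicate 2.

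The last of these regions reaches into the Efna5 promoter window printed above. Peaks covered 0 and 126 bases of the window in TD, 225 and 187 in IFE, and 0 and 0 in HF. TD replicate 1 had a peak of 339 bp in the region that did not reach the window, so it is the IFE libraries and TD replicate 2 that covered the start. The neighbouring region, chr17:62881850-62884369, lies just upstream, with peaks of 2294 to 2503 bp in all 6 libraries. Efna3 was open at 4 and 4 of 5 regions in TD, 4 and 4 in IFE, and 3 and 4 in HF, and Efna1, Efna2 and Efna4 were open at all of their 2, 1 and 3 regions in every library.

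Ephrins B span the membrane and signal back into the cell that carries them. Their 19 regions were open at 12 and 13 places in TD, 13 and 13 in IFE, and 17 and 18 in HF, with both HF libraries above the rest. Of the ephrin B regions, 5 were open in HF alone (26.3%, background 6.22%), and 0 were specific in any other direction. Efnb2 had 6 and 7 of 10 regions open in TD, 6 and 7 in IFE, and 9 and 10 in HF, with 3 regions open in HF alone. Efnb1 had 6 and 6 of 8 open in TD, 7 and 6 in IFE, and 7 and 7 in HF, and the only region of Efnb3 was open in both HF libraries and no other.

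Turning to receptors, the plexins had 53 regions at 8 of 9 genes, of which 33 and 36 were open in TD, 30 and 30 in IFE, and 41 and 42 in HF. TD thus lay between IFE and HF without overlap. IFE was open and HF closed at 4 plexin regions (7.55%, background 9.91%), with the reverse at 12 (22.6%, background 12.8%). Plexin regions open in TD and closed in IFE numbered 6 (11.3%, background 4.48%), with the reverse at 2 (3.77%, background 1.82%). Plxna2, a co-receptor of class 3 semaphorins and a receptor of class 6, held 8 of the 12, with 14 and 15 of 26 regions open in TD, 11 and 12 in IFE, and 22 and 21 in HF. The populations did not overlap. TD and HF were open and IFE closed at chr1:194716420-194718270, chr1:194732337-194733526 and chr1:194739903-194741660, and HF alone at chr1:194685227-194685972, chr1:194723961-194726113 and chr1:194803911-194804540. A single region, chr1:194661819-194662953, was open in TD and IFE and closed in HF. Plxna1 had 4 and 4 of 5 regions open in TD, 3 and 3 in IFE, and 5 and 4 in HF, and Plxna4 had 3 and 4 of 6 in TD, 3 and 3 in IFE, and 4 and 6 in HF. Plxnd1, the receptor of Sema3e, had 2 and 3 of 3 in TD, 1 and 1 in IFE, and 3 and 3 in HF.

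The class B plexins stood the other way round. Plxnb2 was open at 4 and 4 of 5 regions in TD, 5 and 5 in IFE, and 3 and 3 in HF. Plxnb1, the receptor of Sema4d, was open at 2 and 2 of 3 in TD, 3 and 3 in IFE, and 2 and 2 in HF. Each had 1 region open in IFE alone, and Plxnb3 had no region. Plxna3, with 2 regions, and Plxnc1, with 3, had no region specific to any population.

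Neuropilins serve as co-receptors of class 3 semaphorins and of vascular endothelial growth factor. Nrp1 was open at 3 and 3 of 7 regions in TD, 1 and 1 in IFE, and 3 and 7 in HF, so both TD and HF exceeded IFE while the HF libraries lay 4 regions apart. Nrp2 was open at 12 and 15 of 19 in TD, 14 and 13 in IFE, and 15 and 19 in HF. The region at the start of Nrp1 was open in all 6 libraries, and the 2 regions that TD and HF shared against IFE lay 25.6 kb before it and 140.2 kb after it. HF replicate 2 alone was open at 4 of the 7 Nrp1 regions.

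The netrin receptors gave the widest gap between TD and IFE of any family. Their 31 regions were open at 20 and 25 places in TD, 15 and 13 in IFE, and 22 and 19 in HF. Mean shares were 72.6 ± 11.4% for TD, 45.2 ± 4.56% for IFE and 66.1 ± 6.84% for HF (SD, n = 2 each). The share was 27.4 points higher in TD than in IFE, 19.4 points without TD replicate 2, and 6.67 points when only the wider 50% of peaks were kept. TD was open and IFE closed at 7 regions (22.6%, background 4.48%), with 0 in reverse (background 1.82%). IFE was open and HF closed at 2 (6.45%, background 9.91%), with 8 in reverse (25.8%, background 12.8%). Neo1 and Unc5c held 6 of the 7.

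Unc5c encodes a receptor for netrin-1 that mediates repulsion. It was open at 3 and 4 of 7 regions in TD, 0 and 0 in IFE, and 4 and 3 in HF. Neither IFE library had any peak within 50 kb that was assigned to it. A peak over its promoter window covered 135 and 300 bases in TD, 0 and 0 in IFE, and 300 and 300 in HF, within the region chr3:141464804-141465703. Away from the start, TD and HF did not share a region: TD alone was open 128.0 and 193.7 kb downstream, and HF alone 44.2 and 291.8 kb downstream.

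Neo1 encodes neogenin, a receptor for netrin-1 and for repulsive guidance molecules. It was open at 5 and 6 of 7 regions in TD, 2 and 2 in IFE, and 6 and 6 in HF. The start was open in all 6 libraries. TD and HF were open and IFE closed at 3 regions, 88.1 kb downstream and 29.4 and 33.5 kb upstream of the start, and HF alone at a region 149.8 kb downstream. Unc5b, another UNC5 receptor, was open at 10 and 11 of 13 regions in TD, 9 and 9 in IFE, and 9 and 8 in HF. Unc5d was open at both of its regions in every library, Unc5a and Unc5cl had 1 region each with a peak in 3 and 2 libraries, and Dcc had no region.

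**Figure D3:**
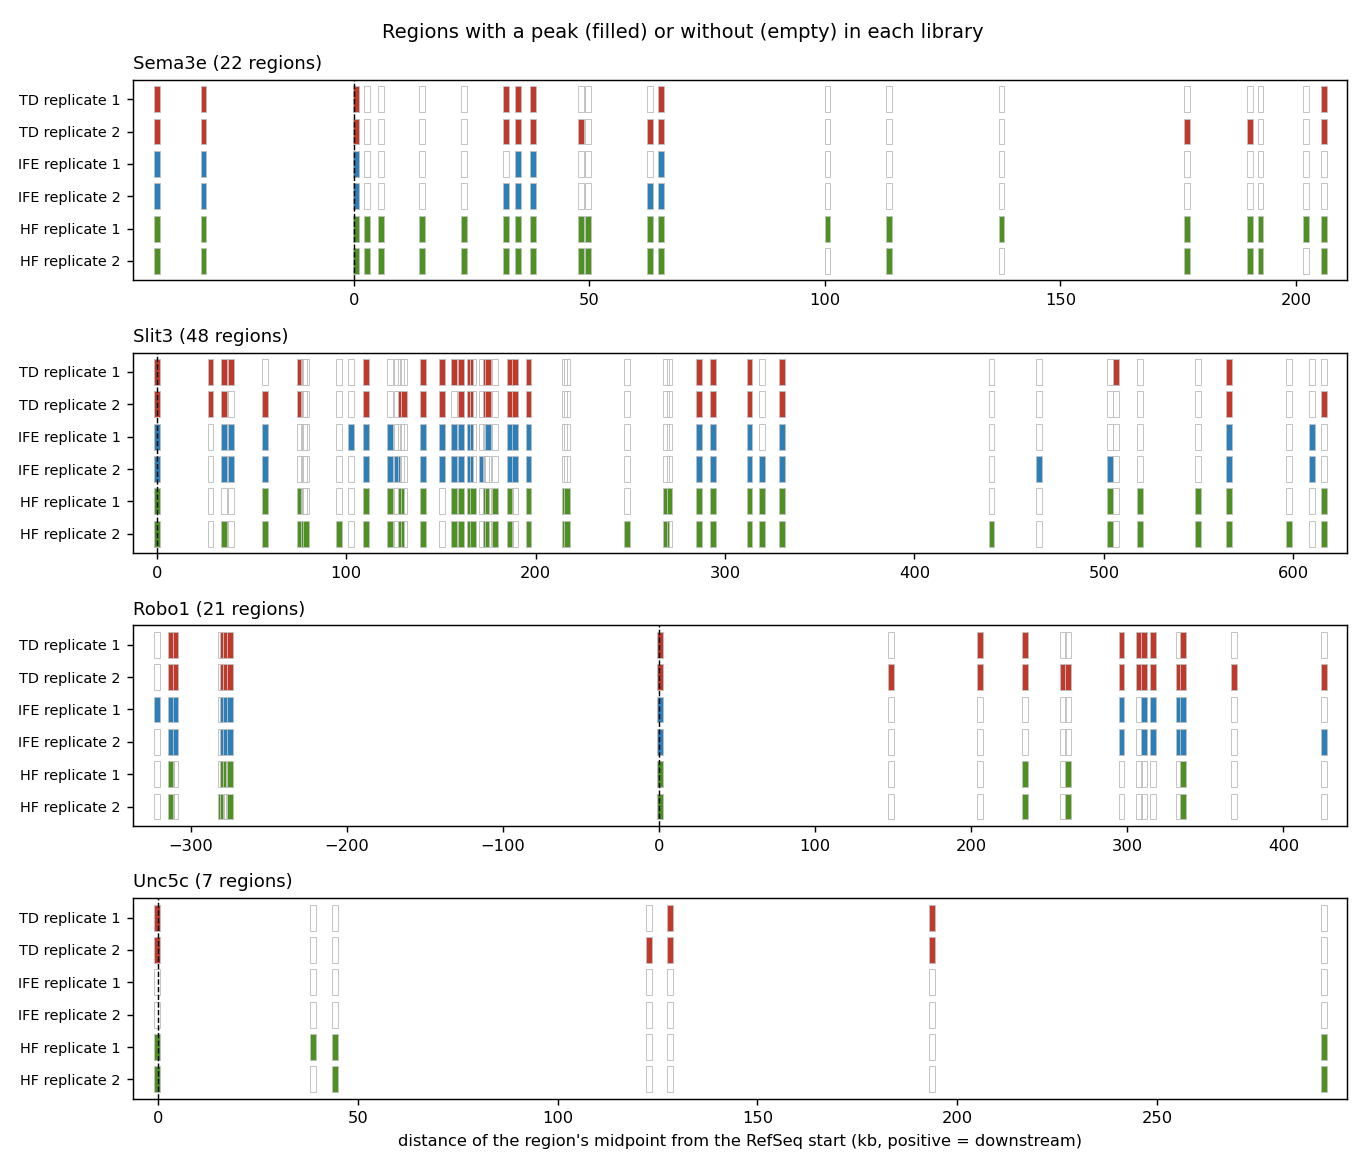
Consensus regions along Sema3e, Slit3, Robo1 and Unc5c, placed by the distance of their midpoint from the RefSeq start in kb (positive is downstream, dashed line is the start), with a filled mark where a library had a peak and an empty one where it had none; marks have a fixed width and do not show the width of a region. The HF rows of Sema3e fill 22 and 19 of 22 marks, the HF rows of Robo1 fill 7 and 7 of 21, and the IFE rows of Unc5c are empty.

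Robos are the receptors of Slits. Of the 44 Robo regions, 15.9% were open in TD and closed in HF (background 8.02%), with 2.27% in reverse (background 7.26%). IFE was open and HF closed at 13.6% (background 9.91%), with 15.9% in reverse (background 12.8%). TD was open and IFE closed at 6.82% (background 4.48%), with 0 in reverse (background 1.82%). Robo1 was open at 13 and 19 of 21 regions in TD, 12 and 12 in IFE, and 7 and 7 in HF. The populations did not overlap, but TD replicate 1, with 13 regions, lay close to the IFE libraries, with 12 and 12. HF was lowest at Robo1, whereas at Slit3 HF was highest. Of the 21 Robo1 regions, TD was open and HF closed at 7, with 0 in reverse, and IFE was open and HF closed at 6, with 2 in reverse. Without TD replicate 1 the net of TD against HF was 12 regions, and that of TD against IFE 7 rather than 3. The promoter window printed above was covered by 164 to 300 bases of peak in every library.

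Robo1 had 5 regions open in TD and IFE and closed in HF, at chr16:72352851-72353647, chr16:72384826-72385557, chr16:72958989-72959801, chr16:72973452-72974255 and chr16:72978813-72980032. The first pair lies inside the gene's span, 309.9 and 278.0 kb before the start used here, which itself lies within that span. TD alone was open at chr16:72868229-72868721 and chr16:72970221-72970898, and TD and HF without IFE at chr16:72897109-72897636. At chr16:72978813-72980032 the peaks covered 1210 and 1155 bp in TD, 1206 and 1218 bp in IFE, and 0 and 0 bp in HF.

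At Robo2 the TD libraries lay far apart. The gene was open at 6 and 17 of 20 regions in TD, 8 and 9 in IFE, and 14 and 12 in HF. IFE was open and HF closed at 0 regions, with 5 in reverse, and this kept its direction when any library was left out. Against HF the net of TD was -1, but it was 5 without TD replicate 1 and -6 without TD replicate 2, so no direction can be given. Robo3 had 3 regions with 2 or 3 open in each library, and Robo4 had none.

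Eph receptors form a large family of receptor tyrosine kinases. The EphA family was open at 23 and 24 of 39 regions in TD, 26 and 26 in IFE, and 27 and 23 in HF. Epha2, an EphA receptor well known from keratinocytes, was open at 5 and 4 of 9 regions in TD, 8 and 6 in IFE, and 6 and 4 in HF, with 2 regions open in IFE alone. Epha4 was open at 11 and 14 of 21 in TD, 12 and 15 in IFE, and 13 and 15 in HF, with nets of 1 region or less, and the sign of its net of TD against IFE changed without TD replicate 1 (1 against -1), as did that of IFE against HF without IFE replicate 2 or HF replicate 1 (-1 against 1). Epha3 had 2 and 2 of 2 regions open in TD, 1 and 1 in IFE, and 1 and 0 in HF. Epha1, with 5 regions, and Epha7, with 2, had no region specific to any population. Epha5, Epha6, Epha8 and Epha10 had no region, although the spans of Epha5 and Epha6 measure 363 and 969 kb.

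EphB receptors were open at 24 and 27 of 37 regions in TD, 24 and 23 in IFE, and 24 and 23 in HF. TD was open and HF closed at 5 EphB regions (13.5%, background 8.02%), with the reverse at 2 (5.41%, background 7.26%). IFE was open and HF closed at 7 (18.9%, background 9.91%), with the reverse at 7 (18.9%, background 12.8%). Members within the family went opposite ways. Ephb3 was open at 8 and 8 of 11 regions in TD, 9 and 8 in IFE, and 7 and 5 in HF, with 3 regions open in TD and IFE and closed in HF. Ephb1 was open at 4 and 7 of 9 in TD, 4 and 4 in IFE, and 7 and 7 in HF, with 2 regions open in IFE and closed in HF and 5 in reverse. Ephb2 had 5 and 6 of 8 open in TD, 4 and 5 in IFE, and 5 and 5 in HF, Ephb6 had 5 and 4 of 6 in TD, 4 and 4 in IFE, and 3 and 4 in HF, and Ephb4 had no region specific to any population.

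**Figure D4:**
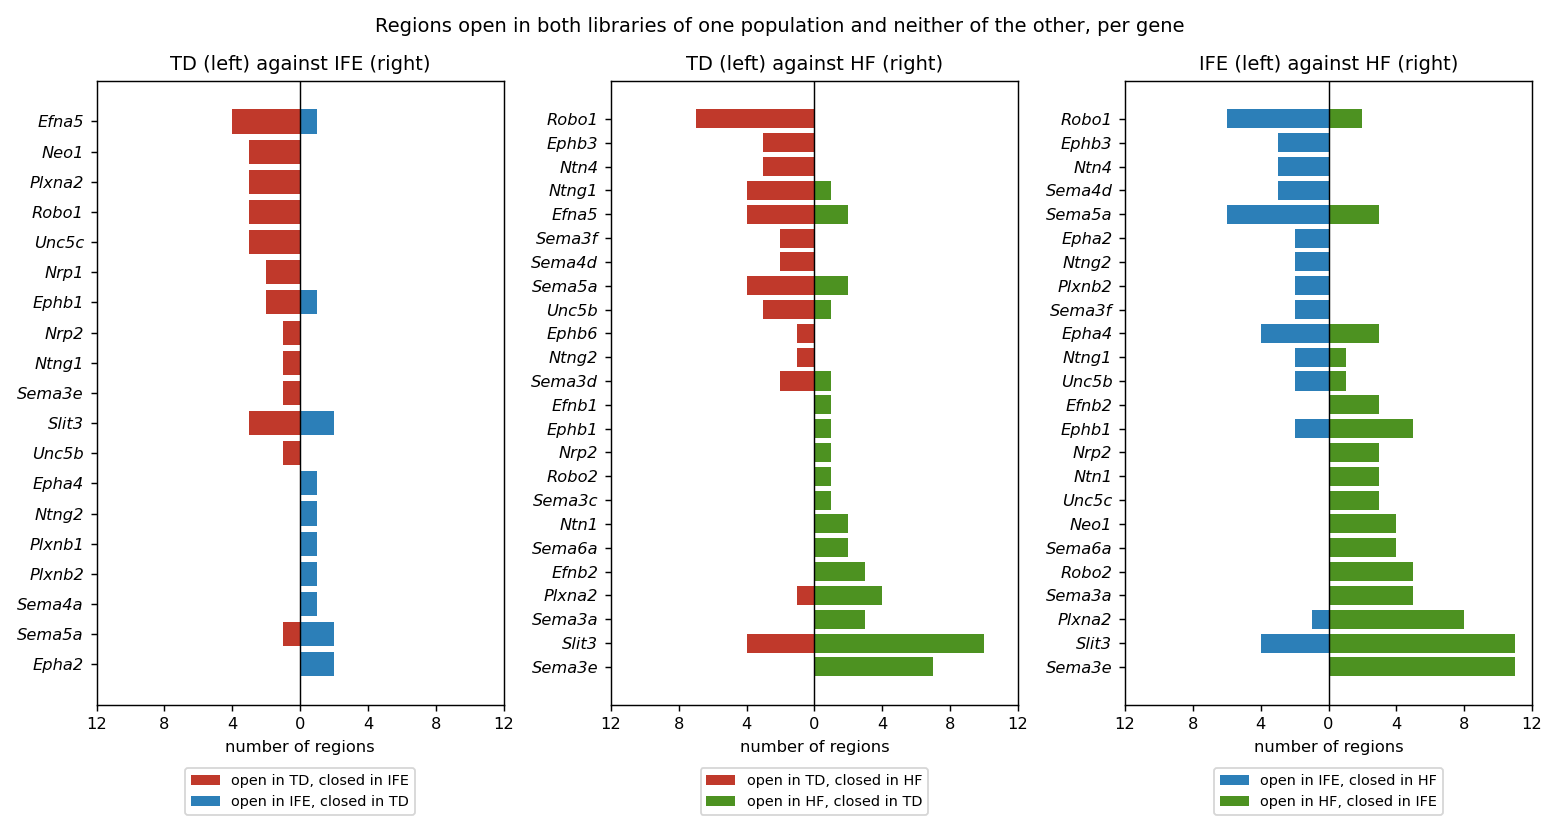
Number of consensus regions open in both libraries of the first population and neither of the second (bars to the left) or the reverse (bars to the right), for up to 12 genes in each direction with the largest net number, in TD against IFE, TD against HF and IFE against HF. The HF bars of Sema3e reach 7 regions against TD and 11 against IFE, and the TD bar of Robo1 reaches 7 regions against HF.

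Counted by gene, 20 of the 64 members with a region had a net number of regions toward TD against IFE (31.3%) and 7 toward IFE (10.9%), where the shares over 15447 genes with a region were 11.3% and 5.26%. Toward TD against HF there were 16 members (25%) and toward HF 16 (25%), against 17.0% and 14.9% of all genes. Toward IFE against HF there were 18 (28.1%) and toward HF 24 (37.5%), against 18.3% and 20.6% of all genes. Members had a median of 5 regions and all genes a median of 2, and a gene with more regions has more chances of a net number, so these shares are not on one footing. By mean share of open regions, 24 of the 64 members with a region were higher in TD than in IFE and 18 lower, 37.5% and 28.1%, against 23.9% and 21.2% of 15447 genes. The median difference in share was 0 points in every comparison, for the members and for all genes.

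A further 53 genes of guidance co-factors and intracellular effectors, among them Rgma, Nrcam, Dpysl2 and Srgap1, had 505 regions at 51 genes. TD was open and IFE closed at 23 of these regions (4.55%, background 4.48%), with the reverse at 10 (1.98%, background 1.82%), both near the background. Between TD and HF, 31 were open in TD and closed in HF (6.14%, background 8.02%), with the reverse at 48 (9.50%, background 7.26%). IFE was open and HF closed at 44 (8.71%, background 9.91%), with the reverse at 75 (14.9%, background 12.8%). By gene, 13 of the 51 were net toward TD against IFE and 6 toward IFE, 25.5% and 11.8%. Toward TD against HF there were 11 and toward HF 15, 21.6% and 29.4%, and toward IFE against HF 11 and toward HF 21, 21.6% and 41.2%. These genes had a median of 7 regions, so their shares by gene are not on one footing with those of all genes given above either. Nrcam, a neuronal adhesion molecule that associates with neuropilins, was open at 3 and 4 of 7 regions in TD, 1 and 1 in IFE, and 6 and 7 in HF.

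Of the 64 members with a RefSeq promoter window, peaks lay over it in all 6 libraries for 35 (54.7%), against 53.0% of 17492 genes, and in none for 19 (29.7%), against 41.4%. Windows covered in both libraries of one population and neither of another were found at 3 members (4.69%, background 2.09%). These were Unc5c, covered in TD and HF and not in IFE, and Efna5 and Sema6b, covered in IFE and not in HF. Sema6b, a class 6 semaphorin, had a peak over its windows in TD replicate 2 and both IFE libraries. Member windows covered in all 6 libraries had a median GC content of 64.7% and 20 CpG pairs, those with a peak in 1 to 5 libraries 68.0% and 23, those with no peak 60.0% and 14.5, and all RefSeq windows together 52.7% and 7.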

How the data were processed

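The deposited data are 6 peak lists, one per library, with 4 columns each: chromosome, start, end and peak name. The submitters' processing notes name MACS2 2.2.7.1, SAMtools 1.9, Bowtie2 2.4.5 and Trim Galore 0.6.7, and mm10 as the build. Settings, a possible shift for the transposase and the cutoff for peaks are not given in the sources used. The lists hold no score, height or read count, so a peak's presence depends on a depth that is unknown, and a deeper library can gain weak peaks. Coordinates are counted from 1.

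Peaks overlapping by at least 1 bp over the 6 lists were merged, and each region went to the nearest protein-coding gene span within 50 kb (RefSeq genes on GRCm38.p6, which mm10 is taken from; 3 member regions were equally near more than 1 gene). The table of spans has no strand, and exon or intron position was not analysed here. Promoter windows and sequences are RefSeq's for GRCm38.p6; 64 of the 74 members had one, and Plxna1, Plxna4, Unc5d, Sema3b, Sema3f, Sema6a, Ntn1, Efnb3, Dcc and Slit1 had none. A window counted as covered where a peak itself overlapped it.

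Groups and replicate numbers came from the labels. Members, families and gene lists were chosen with earlier results of these data known, so no p-value is given for shares over the members, although exact permutation tests of them had been planned; their smallest possible p is 0.333. Named genes were, per comparison and direction, up to 12 members ranked by net specific regions, the member with the most regions in each family, and all members with no region; others are named to account for them. Regions printed with coordinates belong to Unc5c, Efna5, Sema3e, Robo1, Slit3 and Plxna2; for Slit3 only the outermost of its regions are given. Regions are not replicates. The labels do not state whether libraries with the same replicate number belong together. Deviations from the group means correlated across regions by 0.00492 to 0.0605. Such a value, taken from the presence of peaks, cannot show whether those libraries share animals or a sort, so they were treated as unpaired. The region builder was checked on 48 simulated regions, with 0 of 389 checks wrong. Alternatives were peaks covering 50% or more of a region, a merge gap of 100 bp, gene windows of 10 and 100 kb, gene spans alone, equal numbers of the widest peaks per library, the wider 50% of peaks, autosomes, leaving out Unc5cl or each library, and regions over 1 kb from gene ends. The analysis used Python 3.11.15, numpy 2.4.6, scipy 1.17.1 and matplotlib 3.10.9.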

Additional observations from a re-analysis of the deposited data

How the results depend on the processing

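Some of the 16 alternatives could not change a given net number, such as leaving out a library of the population not compared. In all 16 the net direction held for Sema3e (-11 to -5 regions in TD against HF, -14 to -7 in IFE against HF) and Slit3 against HF (-12 to -1 for TD, -13 to -4 for IFE). It also held for Plxna2 in all 3 comparisons, Robo1 against HF (2 to 12 for TD, 2 to 5 for IFE), and Neo1 and Unc5c in TD against IFE (1 to 4 each). The share of member regions open in IFE minus HF ranged from -11.6 to -5.12 points. In TD minus IFE it was -0.100 points with equal numbers of the widest peaks, and -2.21 to 9.93 points when 1 library was left out, the lowest without TD replicate 2. In TD minus HF it was -11.9 to 0.276 points when 1 library was left out, the highest without TD replicate 1.

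With the wider 50% of peaks, counts of specific regions fell to 12 (open in TD, closed in IFE), 7 (IFE, TD), 13 (TD, HF), 22 (HF, TD), 14 (IFE, HF) and 38 (HF, IFE), over 262 regions rather than 544. With a peak cover of at least 50%, IFE was open and TD closed at 21 regions. Leaving out 1 library gave 36 to 77 regions open in TD and closed in IFE, 13 to 34 open in IFE and closed in TD, and 54 to 101 open in HF and closed in TD. The cause of these shifts was not tested, beyond the looser rule that 1 library sets.

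Net numbers of single genes changed sign 19 times in 1072 values. Another 304 values moved without a change of sign, some of them to 0. The remaining 749 were unchanged, part of them because the alternative could not alter them. With a cover of at least 50%, Slit3, Nrp2 and Ephb1 (TD against IFE) and Sema5a (TD against HF) were at -1. Ephb1 was also at -1 with equal numbers of peaks. With the wider 50% of peaks, Efna5 was at -1 against both IFE and HF, Sema5a and Unc5b at -1 in TD against HF, and Sema5a at -2 in IFE against HF. Leaving out 1 library gave -1 to 2 for Nrp2, -3 to 2 for Slit3 and -3 to 1 for Epha4 in TD against IFE, -2 to 2 for Efna5, -1 to 3 for Sema5a and -6 to 5 for Robo2 in TD against HF, and -1 to 2 for Epha4 in IFE against HF. The cause was not tested.

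Averaging the differences between libraries with the same replicate number gave the same differences in share, 3.86, -5.79 and -9.65 points. In a balanced design this holds by arithmetic, so it tells nothing about pairing. Whether libraries with the same number belong together is not stated in the labels.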
